A study of Danio rerio with 17 samples.

Results

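The Zic genes encode C2H2 zinc finger transcription factors related to the Gli effectors of Hedgehog signalling, and the family takes its name from the mouse gene first described as a zinc finger gene of the cerebellum. In vertebrate embryos Zic genes are known for their transcription in the dorsal neural tube, and in the mouse Zic1 and Zic2 are well known from cerebellar granule cells and their precursors. In zebrafish, *zic2a* and *zic5* are known from work on the growth of the dorsal midbrain, the region that forms the optic tectum. The 5 genes described here were taken by name from the 25432 genes of the count matrices: *zic1* (ENSDARG00000015567), *zic2a* (ENSDARG00000015554), *zic2b* (ENSDARG00000037178), *zic4* (ENSDARG00000031307) and *zic5* (ENSDARG00000016022). In the RefSeq gene table of the assembly GRCz12tu, *zic1* and *zic4* are direct neighbours, and so are *zic5* and *zic2a*, while *zic2b* lies between *tm9sf2* and *pcca*.

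Droplet-based single-cell RNA sequencing (10x 3′, v3 chemistry) had been performed on the optic tectum, the dorsal midbrain centre for vision, dissected together with the torus longitudinalis, a midline ridge of granule-type neurons found in ray-finned fishes. All larvae were wild type and untreated, at 7 days post fertilization (dpf) in 7 batches and at 6 dpf in 4 batches. Each batch pooled several larvae from 1 dissection session and was taken as 1 replicate, so that cells of a batch are not independent samples. Barcodes with 600 to 4000 genes, at most 7500 unique molecular identifiers (UMIs, each standing for 1 captured transcript) and at most 10% mitochondrial UMIs were kept.

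Of 87881 barcodes holding 287221630 UMIs (5073733 to 88294858 per batch), 53173 passed these limits, and 47323 were left after the removal of 5850 likely doublets. They formed 21 clusters, made without the Zic genes and named from marker lists: 38380 cells were neuron-like, 6361 progenitor-like and 1375 radial glia-like. In the radial glia-like cells *fabp7a*, *slc1a2b* and *glula* were found in 91.8%, 92.9% and 90.2% of cells, whereas *gfap*, the gene of the glial intermediate filament, was found in only 1.89%. Lanes shared at most 1.16% of the barcodes of the smaller lane. Because free RNA adds UMIs to every droplet, shares were read against 271 microglia-like and erythrocyte-like cells (median of 2623 UMIs), cell types that should lack Zic transcripts.

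At least 1 UMI of a Zic gene was found in 290 of 352 granule-like neurons (82.4%), 1841 of 6361 progenitor-like cells (28.9%), 194 of 1375 radial glia-like cells (14.1%), 4349 of 38028 other neuron-like cells (11.4%) and 22 of 271 microglia-like and erythrocyte-like cells (8.12%). The share was highest in the small granule-like cluster. It made up 0.744% of the 47323 cells left after doublet removal. Of the UMIs in those cells it held 18.6% for *zic1*, 17.3% for *zic2a*, 5.40% for *zic2b*, 14.8% for *zic4* and 21.0% for *zic5*. Progenitor-like cells, 13.4% of the same cells, held 46.3% of the *zic4* UMIs in them and between 17.3% and 29.7% of those of each other member. Batch 10 supplied 2648 of the 6361 progenitor-like cells. In clusters made without batch correction, 597 cells of that batch took this name, and 842 were left when at least 800 genes were required. The pooled progenitor values therefore rest in large part on batch 10 cells that depend on these settings. As a mean over 11 batches, 34.4 ± 8.82% (SD) of progenitor-like cells had a Zic UMI.

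**Figure D1:**
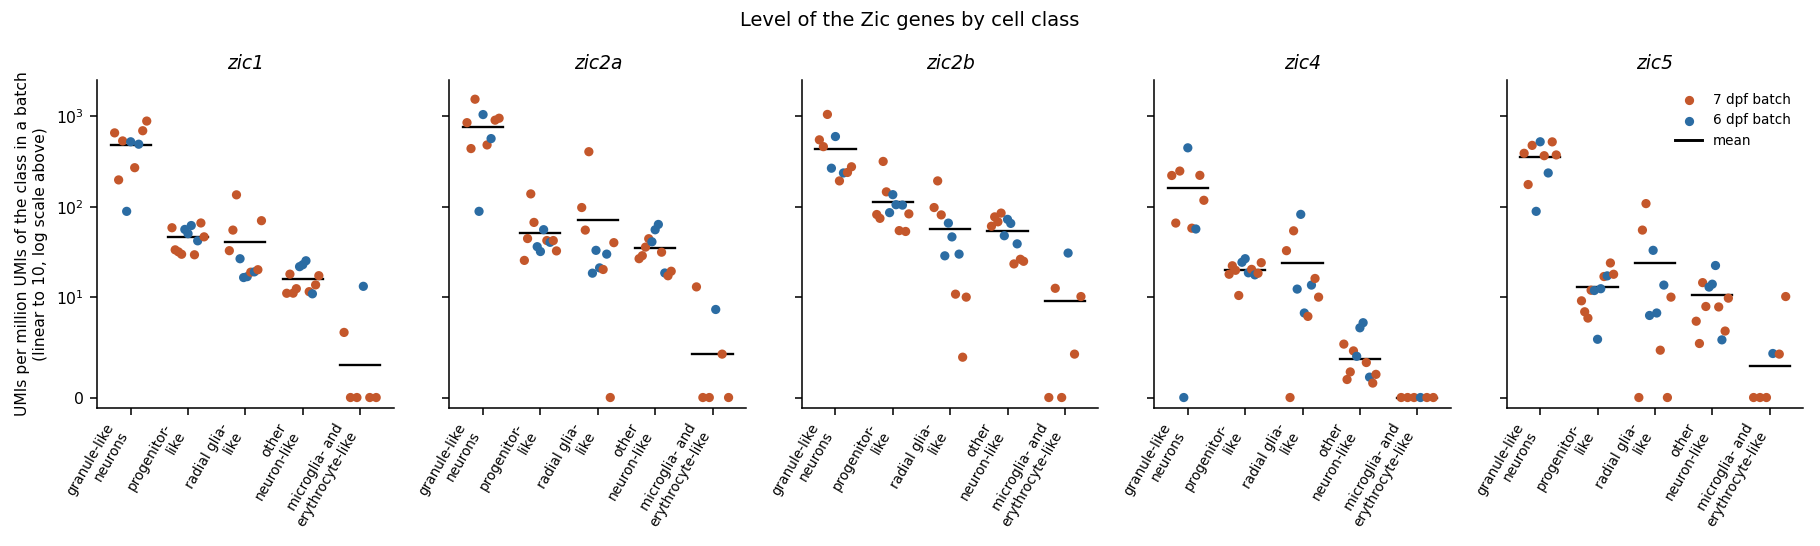
Level of the 5 Zic genes in 5 cell classes, in CPM (axis linear to 10 and logarithmic above); points are batches with at least 10 cells of the class, coloured by age, and lines are means. For all 5 genes the granule-like neurons have the highest mean, and *zic4* is at 0 in every batch of the last class, microglia-like plus erythrocyte-like cells.

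The granule-like cluster was led by *fat2*, an atypical cadherin known from mouse cerebellar granule cells, *galn*, which encodes galanin, and *slc17a7a*, a vesicular glutamate transporter gene. All 6 granule cell markers stood at 2 times their level in other cells or more, with *neurod1* in 88.9%, *fat2* in 77.6% and *slc17a7a* in 47.7% of the cells. Of the meningeal fibroblast markers, *col1a1a*, *col1a2*, *foxc1a*, *foxc1b* and *lum* had no UMI in these 352 cells, *pdgfra* and *dcn* had 1 cell each, and *col5a1* was found in 2.27%, against 2.35% of other neuron-like cells. Of 7 epidermal markers, *krt5* was found in 13.4% of granule-like neurons, against 0.597% of other neuron-like cells, and the other 6 in at most 1.70%; its part in the Zic levels was not tested. Within the cluster the share of cells with a UMI was highest for *zic2a* (61.9%, exact binomial 95% interval 56.6 to 67.0%), followed by *zic1* (53.4%, 48.0 to 58.7%), *zic5* (45.2%, 39.9 to 50.5%), *zic2b* (40.1%, 34.9 to 45.4%) and *zic4* (22.2%, 17.9 to 26.9%). The intervals of neighbours in this order overlapped, except those of *zic2b* and *zic4*, and they cover counting error only.

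Levels are given as CPM, the UMIs of a gene in every 1000000 UMIs of a class in a batch. Across the 9 batches with at least 10 such cells, *zic2a* had a lowest level of 88.7, a median of 849 and a highest level of 1543 CPM in granule-like neurons, against 17.2, 31.4 and 55.5 in the other neuron-like cells of those batches. *zic1*, which in the mouse is used as a granule cell gene, had 88.7, 522 and 884 CPM in granule-like neurons, against 10.9, 12.4 and 22.8 in the others. For both genes, and for *zic2b* and *zic5*, the ranges of the classes did not overlap. The lowest level was the same 88.7 CPM for *zic1*, *zic2a* and *zic5*. Batches 5 and 6 held only 11 and 10 granule-like neurons, and in so few cells a level rests on few UMIs. *zic4* had 0, 118 and 447 CPM in granule-like neurons, against 1.44, 3.48 and 6.94, so its ranges overlapped through batch 5, in which 11 granule-like cells held no *zic4* UMI. *zic5* stood at 88.7, 373 and 522 against 5.74, 9.06 and 14.4, and *zic2b* at 193, 276 and 1048 against 23.3, 47.7 and 84.9. Since clusters are defined by the transcripts of the same cells, these values are a description and were not tested.

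The granule-like neurons were unevenly spread over batches, from 0.379% of neuron-like cells in batch 5 to 4.84% in batch 1. This spread carries into any level averaged over all neurons of a batch, and in such averages fewer cells of a type and less RNA per cell cannot be told apart.

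Neurons with granule cell markers were therefore compared with other excitatory neurons by a gate on 2 genes within the neuron-like cells: cells with a UMI of *slc17a7a* or *fat2* (granule-marker neurons, 744 cells, of which 291 lay in the granule-like cluster) against cells that had *slc17a6a* or *slc17a6b*, the other vesicular glutamate transporter genes, and neither gate gene (11380 cells). Both gate genes are leading genes of the granule-like cluster. The fit is therefore not independent of the values above, and its p-values are no separate support for them. Gate cells outside that cluster are not shown to be granule-type neurons. All 4 members that passed the filter on low counts were higher in granule-marker neurons. In that comparison 6.47% of the 7837 genes tested were higher and 6.76% lower at an adjusted p under 0.05 (edgeR quasi-likelihood test on summed counts of 8 batches, batch as block), 507 and 530 genes where DESeq2 gave 548 and 380. The median log2 fold change was 3.68 over the 4 members and -0.05 over all genes.

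*zic1* had a lowest level of 104, a median of 212 and a highest level of 551 CPM in granule-marker neurons, against 8.83, 14.5 and 19.3 in other glutamatergic neurons. The ranges were wholly separate and the edgeR log2 fold change was 4.06 ± 0.19 (SE, adjusted p = 4.77e-21), the largest of the 4 tested members. *zic5* showed nearly the same contrast, at 73.9, 173 and 319 against 5.95, 9.48 and 15.7 CPM (log2 fold change 3.87 ± 0.20, adjusted p = 6.83e-20). *zic2a* had 173, 352 and 883 against 19.0, 36.9 and 52.2 CPM (3.5 ± 0.18, adjusted p = 2.39e-20). *zic2b* was higher by less, 1.99 ± 0.19 on the log2 scale (adjusted p = 2.48e-11), with overlapping ranges of 72.0 to 602 against 27.0 to 93.9 CPM, although it was higher in granule-marker neurons in 8 of 8 batches. *zic4* did not pass the filter and stood at a median of 53.6 against 3.05 CPM, higher in 7 of 8 batches and at 0 in its lowest batch. Without the filter its log2 fold change was 3.68 ± 0.27 (edgeR adjusted p = 4.12e-39). That p-value comes from another fit and is not to be ranked beside those of the other members.

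Granule cell lineage genes measured in the same fit moved in both directions. Of 16 genes on that list, 8 were tested, of which 4 were higher and 3 lower, and 1 of the 4 was the gate gene *fat2*. The proneural factors *neurod2* (3.52 ± 0.23 on the log2 scale, adjusted p = 3.49e-16) and *neurod1* (3.30 ± 0.27, adjusted p = 1.62e-13) rose by about as much as the Zic genes, and the homeobox gene *barhl1b* rose by 0.77 ± 0.20 (adjusted p = 0.0059). The related *barhl1a* fell by 1.17 (SE 0.18, adjusted p = 2.16e-06), as did *mab21l1*, a gene of dorsal midbrain and eye development, by 1.03 (SE 0.16, adjusted p = 6.4e-06) and the ETS factor *etv1* by 0.82 (SE 0.22, adjusted p = 0.0076). Of the 11 other Zic, Gli and Glis genes, 5 were tested, of which 1 was higher and 2 lower. *gli2a* fell by 1.14 (SE 0.38, adjusted p = 0.040) and *gli3* by 0.63 (SE 0.21, adjusted p = 0.034). The calls of *gli2a*, *gli3* and *etv1* as lower did not hold in every fit that left out 1 batch, though their values stayed negative where the call was lost. That of *gli2a* was lost without batch 5 (-1.12), 11 (-0.81) or 12 (-0.89) and with library sizes not rescaled (edgeR adjusted p = 0.0502). That of *gli3* was lost without any 1 of batches 1, 3, 4, 5, 8 and 12 (-0.62 to -0.50), and that of *etv1* without batch 10 (-0.72) or 12 (-0.56).

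**Figure D2:**
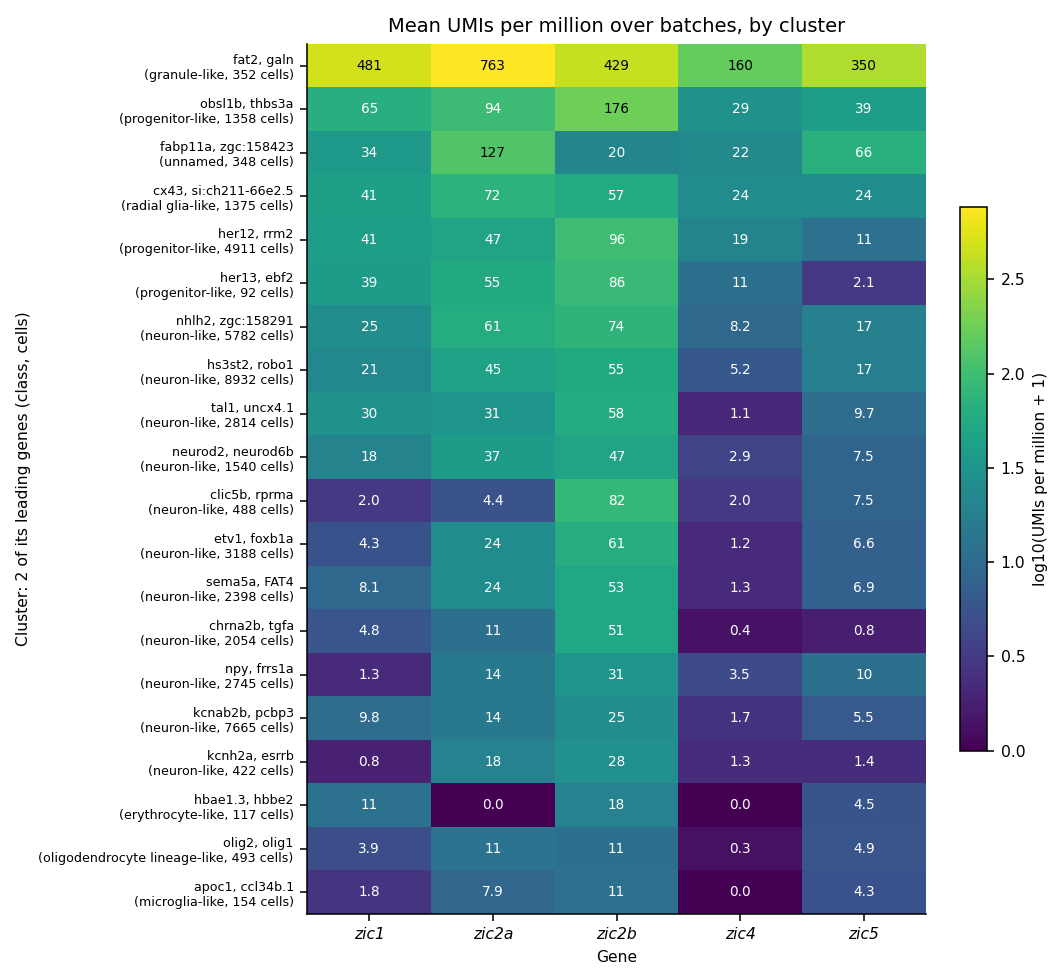
Mean level of each Zic gene (columns) in the 20 clusters with at least 3 batches of 10 cells (rows, with 2 of their leading genes, class and cells), as mean CPM over batches; the colour scale is log10(level + 1). The *fat2* and *galn* cluster is highest for all 5 genes, and the *obsl1b* cluster of progenitor-like cells is next for *zic1*, *zic2b* and *zic4*.

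Outside the granule-like cluster the 5 genes ordered the clusters differently. For *zic1*, *zic2b* and *zic4* the next cluster was the progenitor-like one with *obsl1b*, *thbs3a* and the growth factor receptor gene *fgfr1b* among its leading genes, at 64.5 ± 38.6, 176 ± 91.3 and 29.0 ± 30.1 CPM (SD, n = 11 batches). For *zic2a* and *zic5* an unnamed cluster led by *fabp11a* came next, at 127 ± 48.6 and 65.8 ± 64.2 CPM (SD, n = 7 batches), followed by the *fgfr1b* cluster at 93.9 ± 78.8 and 38.9 ± 28.7 (SD, n = 11). These neighbours in the order lay within 1 SD of each other. Among other neuron-like clusters, the one led by *nhlh2*, a factor of newly born neurons, was highest for *zic2a* (60.7 ± 25), while *zic1* was highest in the *tal1* and *uncx4.1* cluster (29.6 ± 16.8) and *zic2b* in the *clic5b* and *rprma* cluster (81.7 ± 82.7, SD over 9 batches).

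The genes whose level over the 21 clusters was most like that of a member were largely other Zic genes, as measured by Pearson's r of log2(level + 1) over 19318 genes, a description over clusters that share batches and depth. For *zic1* they were *zic5* (r = 0.87), *zic2a* (0.86), *zic4* (0.86), *galn* (0.85) and *slc17a7a* (0.79). For *zic5* they were *zic2a* (0.92), *zic1* (0.87), *zic4* (0.85), *galn* (0.85) and *slc17a7a* (0.81), and for *zic2a* they were *zic5* (0.92), *zic4* (0.87), *zic1* (0.86), *slc17a7a* (0.84) and the keratin gene *krt5* (0.81). *zic4* was most like *zic6* (0.89), *zic2a* (0.87), *zic1* (0.86), the sortilin gene *sort1a* (0.85) and *zic5* (0.85). *zic2b* kept other company, with *zic6* (0.91), *zic4* (0.80), *zbtb18* (0.78) and *zgc:73226* (0.76).

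To compare transmitter classes, neuron-like cells with a UMI of *slc17a6a*, *slc17a6b* or *slc17a7a* and none of *gad1b* or *gad2*, which encode the enzymes of GABA synthesis, were called glutamatergic (7939 cells), and those with the opposite pattern GABAergic (13917 cells). The 4 members tested were all higher in glutamatergic neurons, where 10.9% of 9206 genes were higher and 9.35% lower (edgeR, 11 batches, batch as block). Their median log2 fold change was 1.26, beside 0.03 over all genes. With library sizes that were not rescaled, the calls over all genes numbered 740 higher and 997 lower in place of 1004 and 861, and the same 4 members remained higher.

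*zic2a* had 0, 54.7 and 144 CPM as its lowest, median and highest batch in glutamatergic neurons, against 10.3, 28.3 and 41.2 in GABAergic neurons. The ranges overlapped, but 10 of 11 batches were higher on the glutamatergic side and the log2 fold change was 1.48 ± 0.17 (SE, edgeR adjusted p = 1.26e-06). *zic5* had 0, 18.5 and 59.8 against 0, 6.66 and 24.0 CPM (1.53 ± 0.19, adjusted p = 4.94e-06), higher in 8 of 11 batches. *zic1* had 0, 25.3 and 70.2 against 8.45, 11.4 and 21.6 CPM (1.04 ± 0.15, adjusted p = 1.99e-05), higher in 9 of 11 batches. The lowest glutamatergic value of all 3 genes came from batch 2, which held 81 cells of either class. *zic2b* was higher in 11 of 11 batches, at 31.9, 75.8 and 129 against 19.2, 37.1 and 86.4 CPM, with the smallest change (0.75 ± 0.11, adjusted p = 4.45e-05). *zic4* did not pass the filter and averaged 7.89 ± 7.89 against 2.64 ± 2.34 CPM (SD, n = 11 batches). Without the filter its log2 fold change was 1.59 ± 0.26 (edgeR adjusted p = 5.41e-08), a p-value from another fit than those of the other members.

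**Figure D3:**
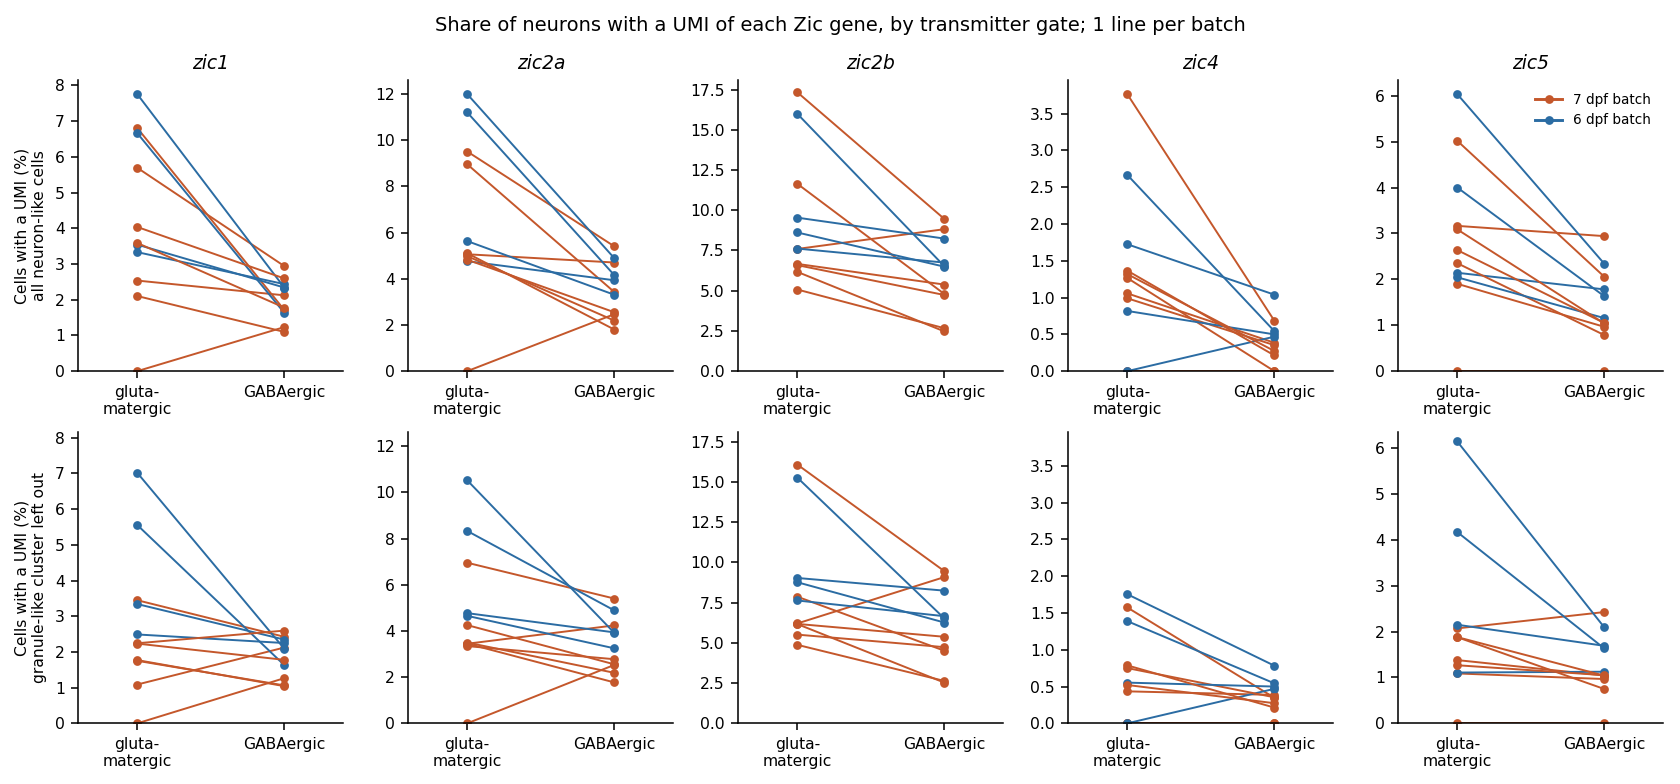
Share of cells with a UMI of each Zic gene in glutamatergic and GABAergic neurons (1 line per batch, coloured by age), for all neuron-like cells (top) and with the granule-like cluster left out (bottom). At the top the share is higher on the glutamatergic side in 10 of 11 batches for *zic1*, *zic2a*, *zic2b* and *zic5*; at the bottom it is so in 8 of 11 batches for *zic1*.

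The difference in *zic1* did not hold outside the granule-like cluster. With that cluster left out, an alternative chosen after seeing the data, the log2 fold change of *zic1* was 0.20 ± 0.15 (edgeR adjusted p = 0.39), at a median of 12.5 against 11.4 CPM. *zic2a* (0.95 ± 0.16, adjusted p = 1.75e-04), *zic5* (0.93 ± 0.22, adjusted p = 0.0038) and *zic2b* (0.53 ± 0.12, adjusted p = 0.0019) remained higher in glutamatergic neurons; 11.2% of 9052 genes were higher in that fit. The summed level of the 6 granule cell markers is given with the cluster included only. It was 120 to 1006 (median 277) CPM in glutamatergic neurons against 26.1 to 205 (median 104) in GABAergic neurons. These markers include *slc17a7a*, a gate gene that GABAergic neurons lack by definition, so part of the difference was set by the gate. Its bearing on *zic1* was not tested.

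Shares of cells with a UMI give the same order with a narrow margin over free RNA. Pooled over batches, *zic2a* was found in 5.82% of glutamatergic (median of 2445 UMIs) and 2.82% of GABAergic neurons (median of 2156), *zic2b* in 8.45% and 5.71%, *zic1* in 3.77% and 2.06%, *zic5* in 2.68% and 1.16%, and *zic4* in 1.25% and 0.374%. In the 271 background cells (microglia and erythrocytes) the shares were 1.85% for *zic2a* (95% interval 0.60 to 4.25%), 3.69% for *zic2b* (1.78 to 6.68%), 2.21% for *zic1* (0.82 to 4.76%) and 1.11% for *zic5* (0.23 to 3.2%), and *zic4* had 0 of 271 cells, which allows a share of up to 1.11% (1.35% at the upper end of the exact interval). The shares in GABAergic neurons lay inside these limits for all 5 genes, and by share they are read as not above background at this number of cells. Of the glutamatergic shares, those of *zic2a* and *zic2b* lay above them and those of *zic1* and *zic5* did not. That of *zic4* (1.25%) lay above its limit of 1.11% but under the exact limit of 1.35%. Levels in the background cells averaged 3.27 CPM for *zic1*, 4.34 for *zic2a*, 9.61 for *zic2b*, 0 for *zic4* and 3.14 for *zic5* over 6 batches. By level, the lowest GABAergic batch lay above that mean for *zic1* (8.45 CPM), *zic2a* (10.3 CPM) and *zic2b* (19.2 CPM). Shares were set against an upper limit and levels against a mean, so these readings are not alike. Set against the background share itself, the GABAergic share was also higher for *zic2a* (2.82% against 1.85%) and *zic2b* (5.71% against 3.69%). For *zic1* it was not (2.06% against 2.21%). None of this was tested. Cells with at least 1000 UMIs were also thinned to 1000 UMIs each, and shallower cells were left out. Mean shares over batches were then 4.04 ± 2.48% against 1.97 ± 1.18% for *zic2a*, 3.04 ± 2.19% against 1.43 ± 0.54% for *zic1* and 2.09 ± 1.5% against 0.840 ± 0.587% for *zic5* (SD, n = 11).

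Neurons outside both transmitter classes also held Zic transcripts. The 3939 cells with both kinds of transcript averaged 37.4 ± 30.6 CPM of *zic1*, 61.7 ± 42.6 of *zic2a* and 67.3 ± 91.7 of *zic2b* (SD, n = 11 batches). The 12585 cells with neither kind, at a lower median depth of 1684 UMIs, averaged 19.0 ± 7.58, 42.9 ± 20.6 and 63.9 ± 31.0. These values lie within the spread of the glutamatergic means of 31.2 ± 19.6, 65.4 ± 42.1 and 75.3 ± 36.0. By share of cells with any Zic UMI, cells with both kinds (14.8%) lay near glutamatergic neurons (14.9%). Cells with neither kind (11.4%) lay nearer to GABAergic neurons (10.3%). No test was run on these values.

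Among related zinc finger genes, 5 of 11 were tested between transmitter classes, of which 2 were higher and 0 lower in glutamatergic neurons. *gli2a*, a Hedgehog effector, rose by 1.03 ± 0.23 (adjusted p = 0.0021) on the log2 scale. The rise of *gli2a* was lost without batch 10 (0.68, adjusted p = 0.069) and with DESeq2 (0.57, adjusted p = 0.293). Of 7 granule cell lineage genes tested, 6 rose, led by *neurod2* (2.53 ± 0.23, adjusted p = 7.69e-08), *barhl1b* (2.03 ± 0.19, adjusted p = 1.54e-07) and *neurod1* (1.88 ± 0.23, adjusted p = 4.21e-06). The homeobox gene *uncx4.1* fell by 2.21 (SE 0.22, adjusted p = 1.92e-07).

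Progenitor-like cells comprised 4911 cells led by *her12* and *rrm2*, genes of Notch response and DNA synthesis, 1358 cells of the *fgfr1b* cluster and 92 cells with *neurod4* and *dlb*, genes of neuronal commitment. Against neuron-like cells, all 5 members were higher with library sizes rescaled for composition (TMM), but this count rests on that scaling. With it, 33.4% of 11333 genes were higher and 30.2% lower (3787 and 3427 genes). Without rescaling, an alternative added after seeing the data, 1684 genes were higher and 5899 lower, the median log2 fold change over all genes was -0.60 in place of 0.06, and 3 members remained higher.

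*zic4* had the largest change and held under both scalings. Its lowest, median and highest levels were 10.4, 19.8 and 26.6 CPM in progenitor-like cells, against 1.77, 4.1 and 14.2 in neuron-like cells, and it was higher in 11 of 11 batches. Its log2 fold change was 2.65 ± 0.26 (SE, edgeR adjusted p = 2.98e-08), or 1.99 without rescaling (adjusted p = 1.02e-05). *zic1* was likewise higher in 11 of 11 batches, at 29.4, 46.4 and 66.0 against 12.8, 19.4 and 37.5 CPM (1.76 ± 0.15, adjusted p = 5.82e-09; 1.09 without rescaling). *zic2b* was higher in 10 of 11 batches, at 53.2, 85.8 and 316 against 24.2, 66.5 and 95.9 CPM (1.59 ± 0.16, adjusted p = 3.23e-08; 0.91 without rescaling). The ranges of these 3 genes overlapped between the classes.

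*zic2a* and *zic5* passed only after rescaling. *zic2a* stood at a median of 42.2 in progenitor-like cells against 41.0 CPM in neuron-like cells, higher in 7 of 11 batches, with a log2 fold change of 0.81 ± 0.19 (edgeR adjusted p = 7.48e-04) but 0.14 ± 0.23 without rescaling (adjusted p = 0.60). *zic5* stood at 11.9 against 13.3 CPM, higher in 5 of 11 batches, with 0.67 ± 0.24 (adjusted p = 0.018) but -0.005 ± 0.303 without rescaling, where its direction flips. Its call was also lost with DESeq2 (0.54, adjusted p = 0.060), without the filter on low counts (0.37, adjusted p = 0.21), and without batch 2, 8, 10 or 11 (0.56 to 0.58, adjusted p of 0.056 to 0.059). With the granule-like cluster left out of the neurons, all 5 members were higher, at log2 fold changes of 1.16 for *zic5* to 3.2 for *zic4*, where 33.4% of 11306 genes were higher.

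By share of cells, *zic2b* was found in 15.6% of progenitor-like cells, *zic1* in 9.31%, *zic2a* in 7.81%, *zic4* in 4.86% and *zic5* in 3.05%, against 6.70%, 2.56%, 4.01%, 0.719% and 1.71% of neuron-like cells, whose median depth was higher (1850 against 2046 UMIs). The first 4 shares exceeded the upper limit of the background cells and that of *zic5* did not. These shares are pooled, and 2648 of the progenitor-like cells came from batch 10. In cells thinned to 1000 UMIs, mean shares over batches were 3.91 ± 1.05% against 1.91 ± 0.780% for *zic1* and 1.24 ± 0.655% against 1.25 ± 0.584% for *zic5* (SD, n = 11). Within the progenitor-like cells, the *fgfr1b* cluster averaged 176 ± 91.3 CPM of *zic2b* and 38.9 ± 28.7 of *zic5*, beside 96.3 ± 74.7 and 11.3 ± 10.1 in the *her12* and *rrm2* cluster (SD, n = 11 batches), a description of overlapping ranges. Roof plate markers summed to 30.5 to 134 (median 42.4) CPM in progenitor-like cells, against 12.5 to 37.1 (median 23.0) in neuron-like cells, with *gdf6a* in 2 of the 6361 cells; their part in the result was not tested.

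Gli genes were also higher in progenitor-like cells. Of 8 tested genes of the related list, 6 were higher and 1 lower, or 4 and 2 without rescaling. *gli2a* rose by 3.82 ± 0.20 (edgeR adjusted p = 5.11e-12), *gli1*, a direct Hedgehog target, by 2.74 ± 0.25 (adjusted p = 1.09e-08), *zic6* by 2.65 ± 0.20 (adjusted p = 7.53e-10) and *gli3* by 1.13 ± 0.14 (adjusted p = 6.87e-07), and each of these held without rescaling. The granule cell lineage genes that passed the filter ran the other way, with 0 higher and 6 lower of 7 tested. The whole list was mixed: of 15 genes, 4 were higher and 8 lower with DESeq2, and 3 higher and 8 lower in edgeR without the filter. *neurod2* fell by 2.47 (SE 0.34, adjusted p = 2.71e-06) and *etv1* by 1.78 (SE 0.19, adjusted p = 1.09e-07).

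Radial glia are the ventricular cells that act as neural stem cells in the fish brain and persist after birth of the neurons. In radial glia-like cells, none of the 4 tested members differed from neuron-like cells at an adjusted p under 0.05 (edgeR, 10 batches), while 18.7% of 9484 genes were higher and 28.2% lower; 2 of the 4 had an unadjusted p under 0.05, as did 52.8% of all genes, and DESeq2 called *zic4* alone. *zic1* stood at a median of 23.3 in radial glia-like cells against 20.1 CPM in neuron-like cells (log2 fold change 0.61 ± 0.30, adjusted p = 0.091). *zic2b* went the other way, at 38.1 against 57.3 CPM and lower in 8 of 10 batches (-0.56 ± 0.27, adjusted p = 0.089). *zic2a* (-0.23 ± 0.33, adjusted p = 0.59) and *zic5* (-0.18 ± 0.39, adjusted p = 0.74) had errors larger than their changes. *zic4* missed the filter; it stood at 12.9 against 4.50 CPM, higher in 8 of 10 batches, and rose by 1.44 ± 0.36 without the filter (edgeR adjusted p = 8.65e-04) and by 1.71 with DESeq2 (adjusted p = 7.34e-05). Without the filter *zic2b* also passed, with a log2 fold change of -0.84 ± 0.29 (edgeR adjusted p = 0.020). DESeq2 called 3615 genes higher and 2940 lower in this comparison, against 1775 and 2675 in edgeR.

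The radial glia values rest on few cells. The 10 batches tested held 14 to 709 radial glia-like cells (batch 2, with 7, was left out), and *zic2a* ranged over 0 to 405 CPM between them. The summed radial glia markers were at 1872 CPM in batch 3 and at 12288 to 77406 in the other 9, and roof plate markers, chiefly *wnt3a*, a dorsal midline signal found in 13.2% of the cells, summed to 59.2 to 595 (median 197), against 12.5 to 37.1 in neuron-like cells; their part in the Zic levels was not tested. In clusters made without batch correction, batches 1, 3, 4 and 6 had 1, 1, 2 and 3 radial glia-like cells, in place of 14, 24, 26 and 35. The class in these batches thus depends on the correction. When both classes were drawn by markers alone, which changed their cells (74 radial glia cells in batch 1 in place of 14), 3 members were higher. They were *zic1*, *zic2b* (1.29, edgeR adjusted p = 4.86e-05) and *zic2a* (0.76, adjusted p = 0.023), so that the direction of the last 2 depends on how the class is drawn. The share of all genes higher in that fit is not given here, so these 3 are not read as more than a general shift. Of the related list, *gli2a* (2.47 ± 0.27, adjusted p = 6.93e-10), *gli2b* (1.47 ± 0.33, adjusted p = 3.48e-04) and *gli3* (1.36 ± 0.24, adjusted p = 1.22e-05) rose and *glis1b* fell by 1.98 (SE 0.39, adjusted p = 4.72e-05), of 6 tested. Of the granule cell lineage list, 0 rose and 6 fell of 7 tested, among them *uncx4.1* by 3.12 (SE 0.42, adjusted p = 6.92e-08), *barhl1a* by 3.01 (SE 0.35, adjusted p = 3.44e-09) and *neurod1* by 3.00 (SE 0.36, adjusted p = 6.5e-09).

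Whether the members are found in the same neurons was asked by counting cells with a UMI of both genes of a pair, beside the number expected from the share of either gene among cells of like depth (5 strata) of the same batch. All 10 pairs of members were found together more often than expected. *zic1* and *zic2a* shared 372 neuron-like cells against 46.7 expected, a ratio of 7.96, which were 37.9% of the *zic1* cells and 24.2% of the *zic2a* cells. The neighbouring genes *zic2a* and *zic5* shared 332 cells against 31.7 (ratio 10.5), or 21.6% of the *zic2a* and 50.7% of the *zic5* cells. The other neighbours, *zic1* and *zic4*, shared 134 cells against 8.54 (ratio 15.7), or 13.7% and 48.6%. The highest ratio belonged to a pair that does not lie side by side, *zic4* and *zic5*, with 102 cells against 5.79 (17.6).

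*zic2b* stood apart from the other 4 members. Its 4 pairs had ratios of 2.64 to 2.95, whereas the 6 pairs without it had ratios of 7.96 to 17.6. *zic2b* was the most widely found member, in 2572 neuron-like cells, of which 364 also had *zic2a* (14.2% of the *zic2b* and 23.7% of the *zic2a* cells). The difference between these sets of pairs was not tested.

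With 11 batches, the exact two-sided sign-flip test cannot give a p below 0.000977, and adjusted over all 91595 pairs of a member with a gene no pair passed at 0.05, above or below expectation. At an unadjusted p under 0.05, 3.93% of all pairs lay above expectation and 11% below, and 10 of 10 pairs of members did. Of the 10, 6 reached the smallest p of 0.000977 with 11 of 11 batches above expectation, and all had an adjusted p between 0.073 and 0.088 (exact sign-flip test). When 2 UMIs of each gene were required, 6 of 10 member pairs passed the adjusted threshold (adjusted p of 0.040 to 0.041, exact test). Of the 45490 pairs left, 198 (0.435%) passed above expectation and 4103 below. The adjustment ran over both directions together, so the adjusted p of the member pairs also rests on the many pairs below expectation.

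**Figure D4:**
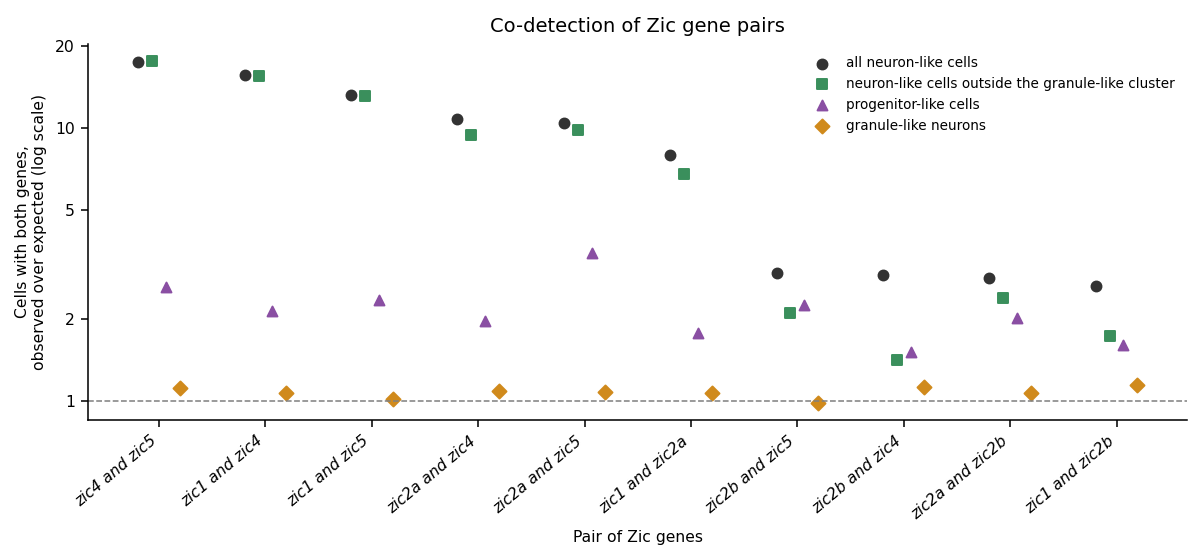
Observed over expected number of cells with both genes of each Zic pair (log axis; the dashed line marks a ratio of 1), in all neuron-like cells, in those outside the granule-like cluster, in progenitor-like cells and in granule-like neurons. In neuron-like cells the 6 pairs without *zic2b* lie at 7.96 to 17.6 and the 4 pairs with it at 2.64 to 2.95, while within the granule-like neurons the ratios lie between 0.986 and 1.15.

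Co-detection was not confined to the granule-like cluster. With that cluster left out, 9 of 10 pairs were above expectation at an unadjusted p under 0.05 in the exact test. Of all 91465 pairs of a member with a gene, 2274 lay above and 10038 below at that p, and 0 passed after adjustment. *zic1* and *zic2a* were found together in 223 cells against 32.8 (6.79), *zic2a* and *zic5* in 205 against 20.7 (9.91) and *zic4* and *zic5* in 53 against 3.00 (17.7). The exception was *zic2b* and *zic4*, with 21 cells against 14.9 (1.41, unadjusted p = 0.123, exact test). Within the granule-like neurons, where most cells had a Zic UMI, the ratios lay between 0.986 and 1.15. In progenitor-like cells they lay between 1.52 for *zic2b* and *zic4* and 3.48 for *zic2a* and *zic5*, a description with no test.

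Cells with several members were rare outside the granule-like cluster. At least 3 members were found in 157 of 352 granule-like neurons (44.6%), 145 of 6361 progenitor-like cells (2.28%), 6 of 1375 radial glia-like cells (0.436%) and 201 of 38028 other neuron-like cells (0.529%). All 5 were found in 26 granule-like neurons and in 7 other neuron-like cells. Of the 201 cells, 80 lay in the *nhlh2* cluster, which held 5782 of the 38028 cells. *neurod1* was found in 47 of the 201 (23.4%), against 8.81% of the remaining 37827 neurons outside the granule-like cluster. Of the 201, 2 had *fat2* (0.995%, against 0.714% of the remaining neurons) and 7 had *slc17a7a* (3.48%, against 0.473%). *neurod2* was found in 3.98% against 2.00%, *gabra6b* in 0.498% against 1.16% and *cbln12* in 0% against 0.0264%. Among transmitter genes, *slc17a6b* was found in 34.3% against 21.1% and *slc17a6a* in 18.4% against 14.7%. *gad1b* was found in 30.3% against 30.0% and *gad2* in 31.3% against 33.8% of the remaining neurons. The median depth of the 201 cells was 3077 UMIs, against 2043, so that the groups also differed in depth. The part of depth in these shares was not tested.

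No gene passed the adjusted threshold as a partner of a member. Granule cell genes differed widely in their ratios with *zic1*: *zic1* and *fat2* shared 181 cells against 16.6 expected (10.9, 10 of 11 batches above) and *zic1* and *slc17a7a* shared 125 against 11.2 (11.1, 10 of 11). For *neurod1* the ratio with *zic1* was 2.69 and for *barhl1b* 2.03, while *barhl1a* (1.05), *etv1* (0.833) and *mab21l1* (0.807, below expectation in 10 of 11 batches) lay near or under 1. *zic5* and *neurod2* shared 117 cells against 19.1 (6.11, 10 of 11). The GABA synthesis gene *gad2* was found with *zic2a* in 419 cells against 516 expected (0.812, below expectation in 10 of 11 batches).

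Batches differed in age and in the sequencer used. None of 16029 genes, the 5 members included, differed between neuron-like cells at 7 dpf and 6 dpf at an adjusted p under 0.05 (edgeR, 7 against 4 batches, sequencer as covariate). At an unadjusted p under 0.05 there were 1417 genes (8.84%) but no member, and DESeq2 called 56 genes (31 higher and 25 lower) and no member. *zic1* averaged 21.4 CPM at 7 dpf and 22.9 at 6 dpf, *zic2a* 41.3 and 49.6, *zic2b* 59.4 and 58.5, *zic4* 5.48 and 6.94, and *zic5* 14 and 16.1. The log2 fold changes lay between -0.17 ± 0.27 for *zic2a* and 0.01 ± 0.43 for *zic4*, none larger than its error. The level of *zic2b* varied more within 7 dpf, from 24.2 to 95.9 CPM, than between ages.

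**Figure D5:**
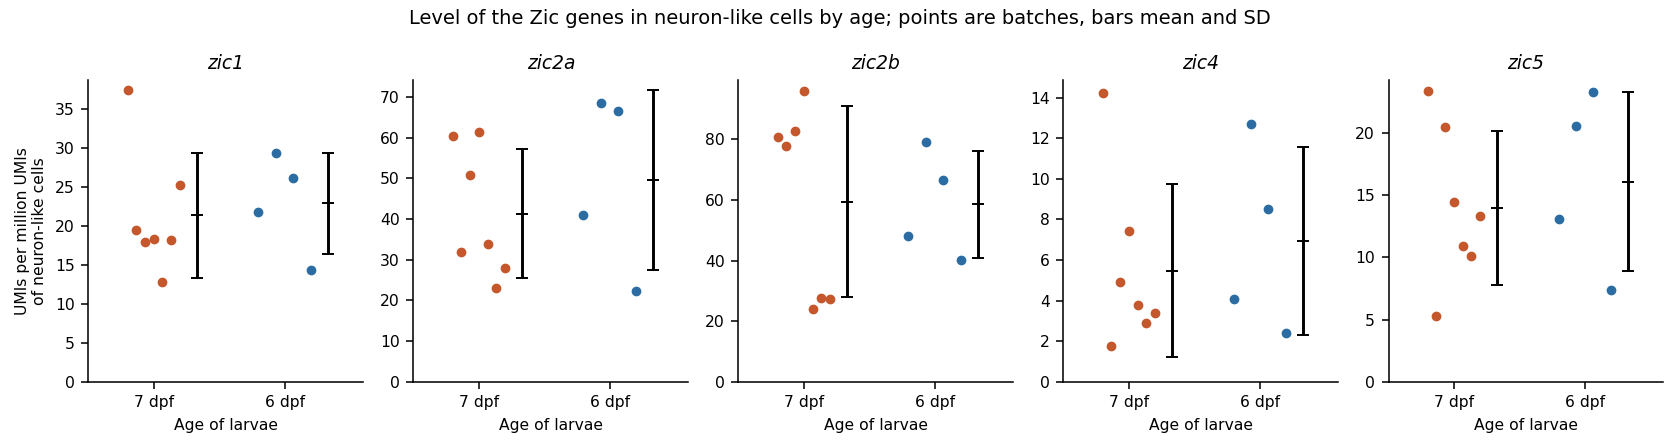
Level of the 5 Zic genes in neuron-like cells at 7 dpf (7 batches) and 6 dpf (4 batches), in CPM; points are batches and bars the mean and SD. The ranges overlap for all 5 genes, with *zic2a* averaging 41.3 at 7 dpf and 49.6 at 6 dpf.

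The gap between transmitter classes was not found to differ with age either. The share of cells with a UMI was higher in glutamatergic than in GABAergic neurons by 1.61 ± 1.98 percentage points at 7 dpf and 3.14 ± 2.42 at 6 dpf for *zic1* (SD, difference -1.53, p = 0.294, exact permutation over 330 splits). For *zic2a* the gaps were 2.27 ± 2.63 and 4.33 ± 3.24 points (difference -2.06, p = 0.276, exact permutation), and for *zic2b* 3.25 ± 3.19 and 3.44 ± 4.06 points (difference -0.19, p = 0.927, exact permutation). Over the 5 genes the adjusted p lay between 0.644 and 0.927.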

How the data were processed

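The authors aligned reads to GRCz11 (Ensembl annotation) and deposited raw UMI counts per gene and barcode from Cell Ranger 7.1.0, with no normalization; 12 lanes with counts of 17 sample records were used, and the 2 lanes of batch 11 were pooled. The label of batch 8 gives 7 dpf, against 1 description line with 6 dpf. Sequencing was on a HiSeq for 8 batches and a NovaSeq for 3.

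Doublets were scored in each lane over the 20 nearest cells in 25 components with artificial doublets as 25% of the cells, and the top 11% were removed. The neighbourhood was chosen after the nearest 1% of cells was seen to remove 175 of 414 granule-like barcodes, against 62. Clusters used 2000 variable genes without the Zic genes and 43 immediate early genes, and batch correction. They were named from marker lists (3 markers at 2 times their level elsewhere, or 5 of 8 neuronal markers); the rule was amended after seeing the data, so that a cluster meeting the neuronal rule, led by *nhlh2*, is not called progenitor-like. The cluster led by *fabp11a* met the epidermal rule but also carries endothelial and fibroblast genes, and is left unnamed. Rebuilt names may differ from those of the study.

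Counts were summed per batch and class (at least 10 cells) and tested with edgeR 4.0.16 (R 4.3.3; TMM, filterByExpr, quasi-likelihood, Benjamini-Hochberg over all genes tested), with batch as block because both sums come from the same larvae and library; DESeq2 1.42.0 was an alternative. Changes are tested class over its comparison class. Co-detection was run for genes found in at least 100 neurons, in 5 depth strata, with an exact sign-flip test over batches; 5 relations were compared for age. Intervals are exact (Clopper-Pearson, 95%), limits for a count of 0 are 3 counts, and both cover counting error only. Scripts (Python 3.11.15, numpy 2.4.6, scipy 1.17.1, scikit-learn 1.9.0, leidenalg 0.10.2) were tested on simulated data.

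The members, gene lists and tests were chosen with earlier results of these data known. Named are the members, up to 6 genes of each list (11 Zic, Gli and Glis genes; 16 granule cell lineage genes, 15 in the files) with the largest change past the threshold, and the 5 genes most like each member over clusters of at least 50 cells; granule cell genes and *gad2* as co-detected partners, and *krt5* as a marker, were chosen after their values were seen. No sequence was used. Results that need certain genes are not reported here.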

Additional observations from a re-analysis of the deposited data

Results flagged for a closer look

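Of 55 groups of 4 to 10 batches examined, 6 had a batch far from the others by Dixon's test, and chance gives about 1 in 20. In batch 1, at 7 dpf, *zic4* was at 27.2 CPM in glutamatergic neurons (558 cells, 26 UMIs), against 0 to 6.73 in the other 6 batches, and at 6.54 in GABAergic neurons (292 cells, 3 UMIs), against 0 to 2.63; this batch also had the largest share of granule-like neurons (4.84%). In batch 3, progenitor-like cells (96 cells) had 138 CPM of *zic2a*, against 25.4 to 66.9 in the other 7 dpf batches, and 316 of *zic2b*, against 53.2 to 146. In radial glia-like cells, *zic2a* was at 405 CPM in batch 4 (26 cells, 15 UMIs), against 0 to 97.8, and *zic4* at 82.2 in batch 6 (35 cells, 5 UMIs), against 8.41 to 13.6. Without batch correction of the clusters, batch 4 had 2 and batch 6 had 3 radial glia-like cells.

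With the granule-like cluster left out, the gap in *zic1* detection between glutamatergic and GABAergic neurons differed with age: 0.03 ± 0.92 percentage points at 7 dpf and 2.52 ± 2.26 at 6 dpf (SD), a difference of -2.49 (p = 0.030, exact permutation; adjusted p = 0.126 over 5 genes), with the gap positive in 8 of 11 batches. It does not pass the adjustment, and the alternative was chosen after seeing the data.

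Signal also appeared in cells outside the comparisons. In the unnamed *fabp11a* cluster (348 cells, 50.9% of them from batch 12), *zic2a* was found in 22.4% and *zic5* in 9.77% of cells, against 1.85% and 1.11% of the background cells (microglia and erythrocytes). In that cluster *foxc1a* was found in 10.9% and *krt8* in 49.1% of cells. The 6527 barcodes above the limit on genes or UMIs held 53.3% of all *zic1*, 49.6% of all *zic2a*, 53.8% of all *zic2b*, 66.9% of all *zic4* and 43.6% of all *zic5* UMIs, at 33.5, 42.8, 69.6, 18 and 11.9 CPM, against 22.3, 33.5, 45.1, 6.55 and 12.1 in the kept barcodes. Of the 287221630 UMIs of all genes these barcodes held 125722806, so the Zic shares are to be read beside that part. By level, *zic5* was not higher than in the kept barcodes.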

How the results depend on the processing

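Counts of members past the threshold changed as follows. Glutamatergic against GABAergic neurons: 4 members, but 1 with no replicate block (*zic1*) and 2 when a gate needed 2 UMIs, where only 2 members passed the filter. Progenitor-like against neuron-like cells: 5 members, but 3 with library sizes without TMM. Radial glia-like against neuron-like cells: 0 members, but 1 with DESeq2, without a filter (*zic4*, while *zic2b* passed as lower), with doublets kept, with the *nhlh2* cluster called progenitor-like, without batch correction or without the granule-like cluster, and 3 with cells classed by markers alone. In the main fit of this comparison 18.7% of all genes were higher and 28.2% lower. For the settings from doublets kept to markers alone, such shares are not given here. Their counts are therefore not read as more than a general shift. Co-detection: 0 pairs, but 6 at 2 UMIs of each gene, where 198 of all 45490 pairs passed above expectation and 4103 below. With no replicate block, 4 members passed for progenitor-like cells (*zic5* lost, 0.47, adjusted p = 0.140, edgeR), 4 for granule-marker neurons and 0 for radial glia-like cells. No paired analysis was possible because the ages come from different larvae, for the comparison of ages. Causes were not tested. Calls over all genes moved by over 1.5 times in these cases: higher and lower genes numbered 100 and 133 between transmitter classes and 171 and 23 for granule-marker neurons with no block, 122 and 56 for granule-marker neurons with doublets scored over the nearest 1% of cells, 711 and 1071 there with a gate of 2 UMIs, 5905 and 4472 for progenitor-like cells with DESeq2, and, without a filter, 1293 and 1346 between transmitter classes, 5099 and 5458 for progenitor-like cells, 3172 and 4554 for radial glia-like cells, 521 and 1074 for granule-marker neurons and 1 and 13 for age.

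Leaving out each batch in turn gave 4 members for the transmitter classes, 4 to 5 for progenitor-like cells (*zic5* lost), 4 to 5 for granule-marker neurons and 0 to 1 for radial glia-like cells (*zic4* entered without batch 3, 6 or 7), 0 for age, and 10 pairs above expectation at an unadjusted p under 0.05 with 0 adjusted. Directions reversed were all of values that had not passed the threshold, except for *zic5* in progenitor-like cells without TMM (-0.0046). In radial glia-like cells they were *zic5* with doublets kept (0.33), the nearest 1% of cells (0.049), markers alone (0.71) and the granule-like cluster left out (0.17), *zic2a* with doublets kept (0.48), the *nhlh2* cluster (0.13), markers alone (0.76) and the granule-like cluster left out (0.069), and *zic2b* with markers alone (1.29); without 1 batch *zic5* ranged over -0.49 to 0.12. For age, *zic4* was at -0.065 with DESeq2, -0.13 in HiSeq batches, -0.14 with doublets kept, -0.13 with the nearest 1%, -0.050 without habenula and lens cells and -0.45 without the granule-like cluster; *zic2b* was at 0.18 in HiSeq batches, and *zic5* (0.37) and *zic1* (0.14) with the *nhlh2* cluster. Without 1 batch these ranged over -0.30 to 0.31 for *zic4*, -0.27 to 0.15 for *zic2b*, -0.26 to 0.11 for *zic5* and -0.29 to 0.11 for *zic1*. The age gap in detection of *zic2b* was 0.64 points in cells thinned to 1000 UMIs and -1.05 to 1.82 without 1 batch, and that of *zic5* -0.99 to 0.13. Thinning, with cells under 1000 UMIs left out, moved 28 of 95 shares by more than their SD. At about 2000 UMIs per cell, a Zic gene at 0 in a cell does not show that it is absent.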

Other observations

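Barcodes with fewer than 600 genes (27206) held 27.3 CPM of *zic1*, 36.3 of *zic2a*, 56.6 of *zic2b*, 9.16 of *zic4* and 10.9 of *zic5*. Batch 10 held 19591 of these barcodes, and without it, a choice made after the values were seen, *zic2b* was at 35.9, *zic1* at 20.5 and *zic5* at 15.1 CPM. In the kept barcodes these 3 genes were at 45.1, 22.3 and 12.1 CPM, so that the side on which the left-out barcodes lay turned with batch 10 for each. The 975 barcodes above the mitochondrial limit had 17.8, 30.2, 51.3, 11.3 and 17.8 CPM of the same genes.

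In oligodendrocyte lineage-like cells (493 cells, median of 2797 UMIs), each member was found in at most 1.62% of cells, the share of both *zic2a* and *zic2b*, and *zic4* in 0.203%, which is within the limits set by the microglia-like and erythrocyte-like cells.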
